A study of Mus musculus with 20 samples.

Results

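Hippocampal RNA libraries of 20 mice were divided by the level of choroid plexus transcripts that came with the tissue. The libraries were selected on the readout itself: 9 genes of the choroid plexus epithelium, namely Ttr, Kcnj13, F5, Slc4a5, Mfrp, Kcne2, Cldn2, Clic6 and Folr1, were expressed as log2 CPM (CPM is the count of a gene relative to the scaled total of its library), each was centred on its mean over the 20 libraries, and the 9 values were averaged into a choroid plexus score. Of the 20 libraries, 12 had a score above -1 and are called libraries with choroid plexus, and 8 had a score below -1 and are called libraries without. Each library came from 1 mouse aged 16 months, homozygous for a targeted replacement in which human APOE3 (hAPOE3) or human APOE4 (hAPOE4) stands in place of mouse Apoe, on a C57BL/6 background, and both genotypes were represented by 5 females and 5 males, which gives 4 groups. All mice were perfused with phosphate buffered saline, and their hippocampi were separated from the cortex on ice. No untreated wild-type mice were part of the comparison, and all 20 mice carried a human APOE allele. Separate animals stand behind all libraries, so the spread given is that between mice. Counts assigned to mouse Apoe, the replaced gene, were between 36.6 and 80.4 CPM without and between 46.1 and 99.1 CPM with choroid plexus, although reads were assigned to mouse transcripts only, and the difference did not pass (log2 fold change 0.26, edgeR adjusted p = 0.157).

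The choroid plexus is a folded sheet of epithelium over a core of stroma and leaky capillaries that hangs in the brain ventricles, and it makes the cerebrospinal fluid. Its epithelial cells move sodium, bicarbonate, chloride and water from blood to ventricle, carry vitamins and hormones across, and secrete transthyretin (Ttr), which carries thyroid hormone. In the lateral ventricle it lies along the fimbria next to the hippocampus, and further back it borders the third ventricle, the habenula and the thalamus. In RNA from whole tissue, a larger number of cells of a type and more RNA in each of them cannot be told apart.

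The 9 genes that made the score were counted in every library, so "without" names a low score and not an absence. Ttr was between 36.5 and 115 CPM (median 69.3) in the 8 libraries without and between 444 and 5943 CPM (median 2857) in the 12 with. In counts, the lowest Ttr value without choroid plexus was 1308 and the highest 4837. Kcnj13, a potassium channel of the apical membrane, was between 0.390 and 0.999 CPM without and between 5.30 and 48.4 CPM with. Slc4a5, a sodium bicarbonate cotransporter, was between 0.426 and 0.832 CPM without and between 2.56 and 43.9 CPM with. The ranges of the 2 sets did not meet for any of these genes, which is how the sets were made and is given with no test.

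The other score genes covered a similar span. Cldn2, a tight junction claudin that forms a pore for cations and water, had a median of 0.671 CPM without and 9.01 CPM with. Kcne2, a potassium channel subunit, had medians of 0.426 and 11.9 CPM, and Folr1, the folate receptor that carries folate into the fluid, had medians of 0.787 and 12.1 CPM. Mfrp, a frizzled-related membrane protein, had medians of 1.33 and 14.5 CPM, and F5, coagulation factor V, had medians of 1.41 and 17.9 CPM. Clic6, a chloride channel family member, had medians of 4.87 CPM without and 34.8 CPM with. The ratio of the mean CPM with to that without ran from 9.93 for Clic6 to 42.5 for Ttr.

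The score was between -2.84 and -1.98 in the 8 libraries without and between -0.29 and 3.32 in the 12 with. The library nearest to the division from below was S177, an hAPOE4 male, at -1.98, and the nearest from above was S167, an hAPOE4 female, at -0.29. A score from 7 of the genes (without F5 and Mfrp) gave the same 12 and 8 libraries. A division at 0 would have moved only S167, which leaves 11 with and 9 without. The libraries without lay close together, whereas those with were spread over a range of scores, from S167 and S178 at the lower end to the hAPOE4 females S165 and S166 at the upper end.

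**Figure D1:**
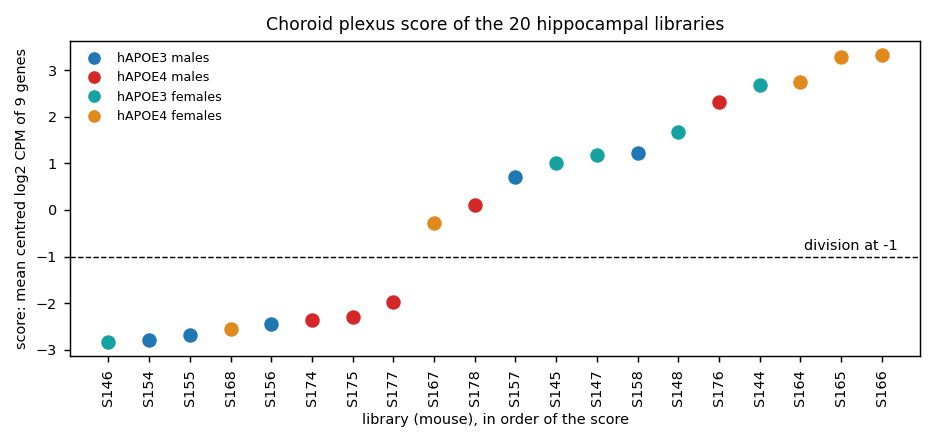
Choroid plexus score (mean centred log2 CPM of 9 genes) of each of the 20 libraries in rising order, 1 point per mouse coloured by group, with the division at -1 as a dashed line. The 8 libraries without choroid plexus sit between -2.84 and -1.98 and the 12 with sit between -0.29 and 3.32, with no library between -1.98 and -0.29.

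Both sets were found in all 4 groups. Among hAPOE3 males 2 libraries were with and 3 without, and the same numbers were found among hAPOE4 males. Among hAPOE3 females and among hAPOE4 females 4 libraries were with and 1 without. By sex this gave 4 of 10 males and 8 of 10 females with choroid plexus, a difference that did not pass Fisher's exact test (two-sided p = 0.170, 0.340 after adjustment over the 2 label comparisons). By APOE genotype 6 of 10 hAPOE3 and 6 of 10 hAPOE4 libraries were with.

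Counts per library ran from 35778879 to 47393668 without and from 39195405 to 52520279 with choroid plexus. The mean was 41036000 ± 3701480 (SD, n = 8) without and 44713300 ± 3952120 (SD, n = 12) with. In an exact permutation of the set within groups (2500 arrangements, two-sided) depth gave p = 0.0264, or 0.0528 after adjustment over the 4 technical measures tested. The number of detected genes was 28431 without and 28729 with (exact permutation p = 0.0252, adjusted 0.0528). The mitochondrial share of the counts was 8.18% ± 1.07 (SD, n = 8) without and 8.90% ± 1.43 (SD, n = 12) with, and it did not differ beyond the spread between mice (exact permutation p = 0.140). The part of depth in the results below was not tested.

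Among the 12 libraries with choroid plexus, 3 stood apart in genes of other brain regions. They are S158, an hAPOE3 male, and S176 and S178, both hAPOE4 males, and they were picked out after their values were seen. Tcf7l2, a transcription factor of thalamic and habenular neurons, was at 91.6 CPM in S158, 95.8 CPM in S176 and 56.4 CPM in S178, and at 4.94 to 15.8 CPM in the other 17 libraries. Shox2, a homeobox factor of thalamic neurons, was at 31.8, 27.9 and 23.1 CPM in the same order and at no more than 1.98 CPM elsewhere. All 3 libraries were above the other 17 in every gene of the thalamic list: the summed level of its 10 genes was 1222 CPM in S158, 1155 CPM in S176 and 1088 CPM in S178, and between 411 and 587 CPM in the remaining libraries. S147, an hAPOE3 female with choroid plexus, held the highest values of the 17 for Tcf7l2 and Shox2.

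Further genes set these 3 libraries apart from each other. S158 held the highest striatal levels: Adora2a, the adenosine receptor of striatal projection neurons, was at 32.4 CPM there, at 8.10 CPM in S178, at 3.63 CPM in S176 and at 0.978 to 6.67 CPM in the other 17. S176 held the highest value of Pou4f1, a transcription factor of the medial habenula, at 14.5 CPM, whereas S158 was at 1.96 CPM and S178 at 1.21 CPM and no other library passed 1.07 CPM. Slc6a3, the dopamine transporter, was at 46.7 CPM in S176 and 21.3 CPM in S158, and at no more than 0.428 CPM in the other 18. Since all 3 are males, only 1 male library with choroid plexus, S157, was left when they were taken out, and no hAPOE4 male. The main counts that follow are therefore given with and without them, and the part of these regions in the results was not tested.

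**Figure D2:**
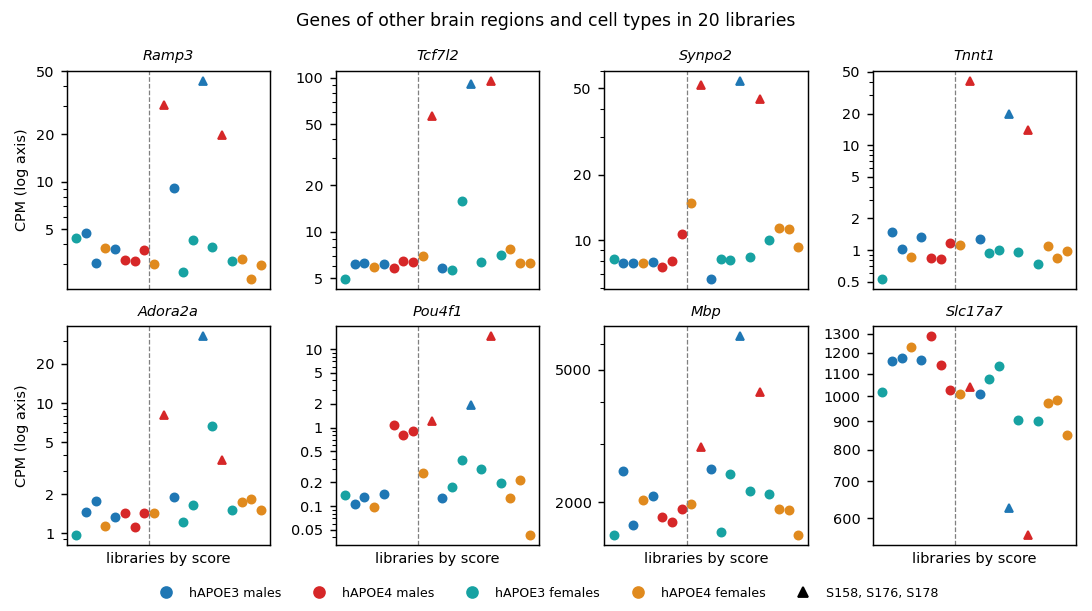
CPM (log axes) of 8 genes in the 20 libraries, ordered by choroid plexus score, with the dashed line between the sets and S158, S176 and S178 drawn as triangles. In the thalamic genes Ramp3, Tcf7l2, Synpo2 and Tnnt1 the 3 triangles lie above all other libraries, S158 leads for the striatal Adora2a, S176 leads for the habenular Pou4f1, S158 and S176 lead for the myelin gene Mbp, and the glutamatergic Slc17a7 is lowest in S158 and S176.

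The levels of all other genes were then compared between the sets with the 4 groups as terms in an edgeR quasi-likelihood fit. With 12 against 8 libraries, 2482 of 21715 genes outside the score passed an adjusted p of 0.05, which is 11.4% of the genes tested. Of these, 1388 were higher with choroid plexus (6.39%) and 1094 were lower (5.04%). The changes were larger upward than downward: 386 genes were higher and 18 lower by more than a log2 fold change of 1, and the median was 0.65 among the genes that were higher and -0.38 among those that were lower. In 79 genes (0.364%) the CPM values of the 12 and the 8 libraries did not overlap, and all 79 were higher with choroid plexus. At an unadjusted p under 0.05 edgeR gave 6187 of the 21715 genes in both directions, to be read beside the list counts below.

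Far fewer genes passed when the 3 libraries were left out, a comparison that also has fewer mice. Without S158, S176 and S178, 29 of 22238 genes passed (0.13%), all 29 higher and all 29 among the 2482. No gene was called lower by edgeR in these 17 libraries, where 1077 genes were lower and 1173 higher at an unadjusted p under 0.05, and DESeq2 called 210 genes higher and 10 lower. These numbers are to be read beside the list counts of the 17 libraries below. Of the 2482 genes, 2477 were tested in the smaller comparison and 2456 kept their direction there. The median fold change of the genes called lower moved from -0.38 to -0.24, and that of the genes called higher from 0.65 to 0.39. Leaving out a single library gave between 682 calls (without S158) and 4486 (without S168, the only hAPOE4 female without choroid plexus). It gave 1651 calls without S154, 1577 without S155, 1475 without S174 and 1409 without S178.

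The 6 lists of choroid plexus epithelial genes that were not used for the score held 85 tested genes. Of these, 59 were higher with choroid plexus and none was lower, beside 6.39% of all genes that were higher. By edgeR at an unadjusted p under 0.05, 65 were higher and 0 lower, beside 6187 of all 21715 genes in both directions. DESeq2 called 60 higher and 0 lower, and limma voom 58 higher and 0 lower. Their median log2 fold change was 1.27, beside 0.01 over all genes tested, and 29 of the 85 did not overlap between the sets. Without S158, S176 and S178, edgeR called 16 of the 85 and DESeq2 49.

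Among the genes for ion and water transport was Aqp1, with the largest fold change of the 85. Aqp1 (ENSMUSG00000004655.5, GRCm38 chr6:55336432-55348555), the water channel of the apical membrane, had a median of 0.473 CPM without, with a lowest value of 0.346 and a highest of 0.803 CPM, and a median of 8.13 CPM with, from 1.73 to 24.2 CPM. Its log2 fold change was 3.97 ± 0.44 (SE; edgeR adjusted p = 6.09e-05), and 3.83 ± 0.59 without the 3 libraries (adjusted p = 0.0111). The sets were separate for Aqp1, with S167 the lowest library with and S168 the highest without. Trpv4, a calcium channel that opens on cell swelling and warmth, was at a median of 1.63 CPM without and 10.9 CPM with (log2 fold change 2.73 ± 0.38). Car14, a membrane-bound carbonic anhydrase, rose by 1.48 ± 0.22 and the anion exchanger Slc4a2 by 1.01 ± 0.19, both on the log2 scale. In all, 9 of 16 genes of the list were called higher.

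Carriers of nutrients and hormones were divided. Slc13a4, a sulfate transporter, was at a median of 3.11 CPM without (1.99 to 6.21 CPM) and 17.9 CPM with (7.54 to 53.3 CPM), a log2 fold change of 2.54 ± 0.37. The lactate carrier Slc16a8 had a fold change of 2.51 ± 0.48 and the organic anion carrier Slco1a5 one of 2.52 ± 0.41, with medians of 2.98 and 0.950 CPM in the libraries with. The sets overlapped for Slc16a8, at 0.0279 to 0.779 CPM without and 0.308 to 7.70 CPM with. Rdh5, which oxidises retinol, rose by 2.33 ± 0.30 (log2). Without S158, S176 and S178 Rdh5 passed, whereas Slc13a4, Slc16a8 and Slco1a5 did not (edgeR adjusted p = 0.114, 0.208 and 0.0825). With all 20 libraries these 4 genes were among 9 of 19 that were called higher. The endocytic receptor Lrp2 and the lipocalin receptor Slc22a17 had fold changes of -0.10 and 0.02 and did not pass.

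Secreted proteins were the list with the most separated genes. Of 14 tested, 13 were higher with choroid plexus and 10 of them did not overlap between the sets. 1500015O10Rik, the mouse gene for augurin, was between 1.58 and 2.78 CPM without and between 6.51 and 59.3 CPM with (log2 fold change 3.70 ± 0.42). Igf2, insulin-like growth factor 2, was between 18.7 and 27.1 CPM without (median 21.1) and between 51.7 and 182 CPM with (median 90.9), a fold change of 2.14 ± 0.24. Enpp2, which makes lysophosphatidic acid, was at a median of 192 CPM without and 847 CPM with. Sostdc1, an antagonist of BMP and Wnt ligands, rose by 2.61 ± 0.36, the collagen Col8a1 by 2.78 ± 0.43 and the inhibitor of growth factor ligands Wfikkn2 by 2.44 ± 0.47, all on the log2 scale. Vegfa, the endothelial growth factor, was at medians of 68.6 and 71.1 CPM and did not pass.

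Among receptors and enzymes, 14 of 16 genes were higher. Steap1, a metalloreductase, was at a median of 0.243 CPM without (0.106 to 0.364 CPM) and 3.12 CPM with (0.852 to 8.11 CPM), a log2 fold change of 3.59 ± 0.45. Wdr86 changed by 3.42 ± 0.39 and Prr32 by 3.24 ± 0.41. Cox8b, a tissue-restricted subunit of cytochrome oxidase, was at a median of 0.343 CPM without and 2.69 CPM with (fold change 2.44 ± 0.34). Prlr, the prolactin receptor, had a fold change of 1.91 and Lepr, the leptin receptor, one of 1.81, and without S158, S176 and S178 neither passed (edgeR adjusted p = 0.136 and 0.125). The serotonin receptor Htr2c, which neurons express as well, had a smaller fold change of 0.77, and Trpm3 one of 0.61 that did not pass.

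Of 5 transcription factors 3 were higher. Otx2, which specifies the choroid plexus and keeps its identity, was at a median of 2.02 CPM without (1.29 to 2.47 CPM) and 15.0 CPM with (5.73 to 27.4 CPM). Its log2 fold change was 2.95 ± 0.34 with all libraries and 2.79 ± 0.46 without S158, S176 and S178 (edgeR adjusted p = 0.0179). Lmx1a, a factor of the roof plate from which the choroid plexus grows, rose by 2.38 ± 0.41, and Msx1 by 1.27 ± 0.19. Gmnc, which drives the formation of multiple cilia, and Msx2 had fold changes of 0.47 and 0.28 and did not pass. Of the junction and keratin genes 11 of 15 were higher, led by the keratins Krt18 (2.28 ± 0.50) and Krt8 (1.64 ± 0.30) and by the endocytic adaptor Epn3 (1.99 ± 0.31). Ezr and Ocln, which are not confined to epithelia in the brain, had fold changes of 0.08 and 0.10 and did not pass.

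**Figure D3:**
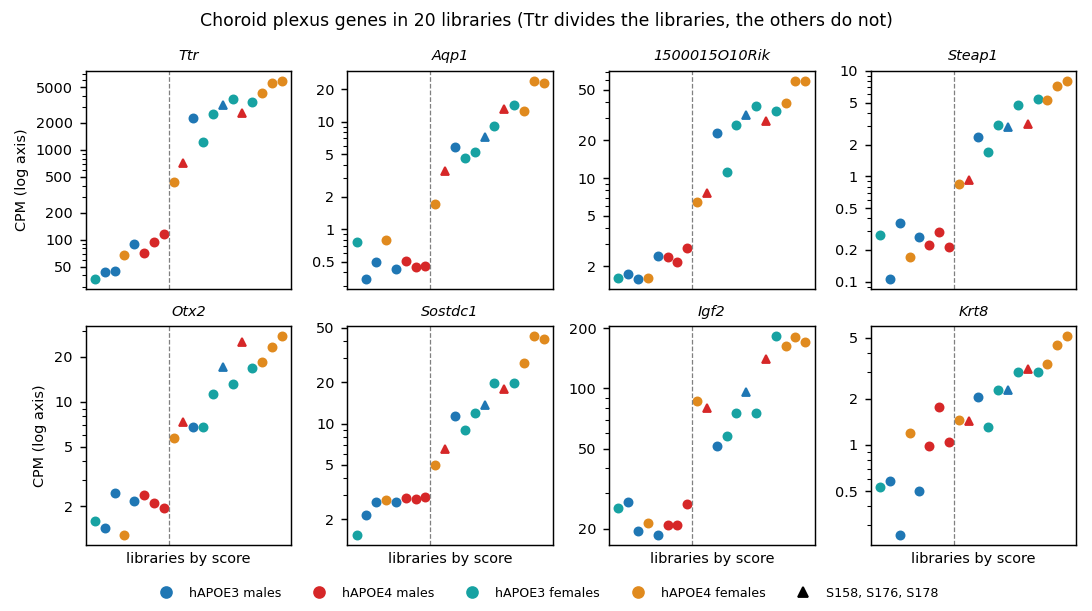
CPM (log axes) of Ttr, which was used for the score, and of 7 genes which were not, in the 20 libraries ordered by choroid plexus score, with the dashed line between the sets and 1 point per mouse. Aqp1, 1500015O10Rik, Steap1, Otx2, Sostdc1 and Igf2 do not overlap between the sets, whereas Krt8 does, with without values up to 1.77 CPM and with values from 1.31 CPM.

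The 29 genes that passed also without S158, S176 and S178 included 16 of the choroid plexus lists, 1 of the ependymal list and 12 of neither. Beside those already named, they included Calml4, Pcolce and Igfbp2 of the choroid plexus lists and Tuba1c, a tubulin of the ependymal list. Of the 12 others, Wfdc2, a protease inhibitor of secretory epithelia, was between 0.0730 and 0.498 CPM without and between 0.521 and 5.95 CPM with (log2 fold change 4.49 ± 0.68 in the 17 libraries). Sfrp5, a secreted Wnt antagonist, had a fold change of 3.46 in all libraries and 2.11 in the 17. Drc7, part of the motor regulator of motile cilia, had a median of 2.39 CPM without and 10.5 CPM with, and Cdkn1c, a cell cycle inhibitor, medians of 3.10 and 10.3 CPM. The remaining genes were Eps8l2, Myct1, Gkn3, Defb11, Gm29538, Olfr570 and 2 transcripts without a gene symbol, of which Myct1, Defb11 and Olfr570 had medians of 0.833, 0.738 and 0.408 CPM in the libraries with. Myct1 and Gkn3, genes of blood vessels, overlapped between the sets. DESeq2 called all 29 in the same 17 libraries.

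The level of the score among the libraries with choroid plexus was used as a separate comparison, added after the data were seen. Over the 12 libraries, with the groups as terms, 99 of 22961 genes rose with the score and none fell (edgeR adjusted p). At an unadjusted p under 0.05 the number was 1225 in both directions. Of the 99, 38 belonged to the 6 choroid plexus lists. Over the 9 libraries other than S158, S176 and S178 the numbers were 83 genes higher with the score, 1 lower and 34 of the lists. Aqp1 rose by 1.00 ± 0.06 on the log2 scale for each unit of the score, Enpp2 by 0.82 ± 0.06, Prlr by 0.77 ± 0.06 and Kl by 0.73 ± 0.06. Oca2, a melanosome transporter in none of the lists, had a slope of 0.90 ± 0.05. Of the 29 genes, 13 passed in the 12 libraries and 10 in the 9. The same libraries gave the score and these levels, so the slopes show which genes moved along with the 9.

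The promoters of the genes that moved together were searched for the 6 letters TAATCC on both strands, the core that Otx2 and related factors bind, in the window from 250 bases before to 50 bases after the start in RefSeq (GRCm38.p6). Of the 59 list genes that were higher, 46 had a promoter in the table, and 7 of their 63 promoters held the letters (11.1%), beside 7.06% of all 32851 promoters. Fewer than 80% of the 59 genes were matched, so a comparison of these shares is void. The promoters of Abca4, which carries retinoids (log2 fold change 2.31), and Slc6a13, a GABA and taurine carrier (1.51), are 2 of the 7 and are shown as examples chosen after the match was seen, with the match in capitals, here in its reverse complement.
Abca4, chr3:122044210-122044509, plus strand: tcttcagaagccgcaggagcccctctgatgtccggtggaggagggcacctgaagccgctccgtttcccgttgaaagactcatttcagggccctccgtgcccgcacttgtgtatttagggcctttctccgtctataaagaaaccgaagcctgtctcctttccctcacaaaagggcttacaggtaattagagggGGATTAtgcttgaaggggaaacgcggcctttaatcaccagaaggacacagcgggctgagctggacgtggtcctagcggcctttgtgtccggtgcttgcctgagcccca
Slc6a13, chr6:121300038-121300337, plus strand: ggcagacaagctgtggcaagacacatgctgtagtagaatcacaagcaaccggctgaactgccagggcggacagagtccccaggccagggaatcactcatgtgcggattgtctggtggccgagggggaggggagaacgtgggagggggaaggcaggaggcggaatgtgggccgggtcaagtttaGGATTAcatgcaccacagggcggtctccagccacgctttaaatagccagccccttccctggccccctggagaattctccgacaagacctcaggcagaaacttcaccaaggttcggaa
The match began 58 bases before the start in Abca4 and 67 bases before it in Slc6a13. A match is a run of letters and was not shown to be bound.

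Of 18 fibroblast and meningeal genes 13 were called higher and 0 lower (14 and 0 by DESeq2, and 0 lower at an unadjusted p under 0.05), with a median log2 fold change of 0.77. Beside this, edgeR called 6.39% of all genes higher, and 6187 of 21715 were at an unadjusted p under 0.05 in both directions. Aldh1a2, which makes retinoic acid in the meninges and choroid plexus stroma, was at a median of 1.97 CPM without (1.39 to 3.43 CPM) and 8.35 CPM with (2.02 to 13.2 CPM), a fold change of 1.75 ± 0.39. Dpep1, a dipeptidase of meningeal fibroblasts, changed by 2.16 ± 0.54, and the collagens Col1a2 and Col3a1 by 1.33 and 1.40. Mgp, an inhibitor of calcification, was the only gene of the list whose sets did not overlap, from 7.51 to 12.5 CPM without and from 15.3 to 39.1 CPM with. The summed level of the list overlapped, between 186 and 251 CPM without and between 151 and 516 CPM with. The lowest sum of all 20 was that of S157, with choroid plexus, and S147 (207 CPM) and S148 (221 CPM) were below S146 (251 CPM), the library without of their group. Without S158, S176 and S178 the median of the list was 0.77 as well, but no gene passed by edgeR. There 9 were higher and 0 lower at an unadjusted p under 0.05, beside 1173 higher and 1077 lower of all 22238 genes.

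Smooth muscle genes were higher while most endothelial genes were not called. Tagln and Acta2, cytoskeletal genes of smooth muscle, rose by 1.22 ± 0.24 and 1.07 ± 0.22 (log2), and 4 of 10 mural genes passed. Of 12 genes of barrier endothelium 2 passed, Egfl7 (0.51) and Slco1a4 (0.29), and of 6 tested genes of fenestrated capillaries 1 passed, Emcn (0.34). Among all genes tested, 6.39% were called higher. Plvap, the diaphragm protein of fenestrated vessels, had a fold change of 0.24 and did not pass. In the 17 libraries no gene of these lists passed by edgeR.

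Ependymal cells line the ventricle and carry motile cilia. Of 20 ependymal genes 7 were higher and 0 lower (8 and 0 by DESeq2, 9 and 0 at an unadjusted p under 0.05), with a median log2 fold change of 0.38. Among all genes edgeR called 6.39% higher, and 6187 of 21715 were at an unadjusted p under 0.05 in both directions. The ependymal genes were led by Tuba1c at 1.81 ± 0.26, Cfap126 at 0.98 ± 0.24 and Pifo at 0.95 ± 0.25. Foxj1, the master regulator of motile cilia, was at medians of 8.76 and 12.1 CPM (fold change 0.63, adjusted p = 0.0499). The defining ependymal genes Tmem212 and Ccdc153 had fold changes of 0.06 and 0.37 and did not pass. The summed level of the list was between 58.1 and 83.9 CPM without and between 43.2 and 139 CPM with, where the lowest was S145. In the 17 libraries Tuba1c alone passed.

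Antigen presentation genes were higher with choroid plexus. MHC class II molecules present peptides to helper T cells and are expressed by macrophages and dendritic cells of the choroid plexus and meninges and by activated microglia. Of 7 genes of the list 5 were called higher: H2-Aa (log2 fold change 1.65 ± 0.37), H2-Ab1 (1.62 ± 0.35), Cd74 (1.32 ± 0.28), H2-Eb1 (1.30 ± 0.35) and H2-DMb1 (0.75 ± 0.15). Beside this, edgeR called 6.39% of all genes higher, and whether a list this small departs from that share was not tested. H2-Aa was at a median of 0.758 CPM without (0.286 to 2.04 CPM) and 2.66 CPM with (0.653 to 6.14 CPM), and the sets overlapped. Within the hAPOE4 females it was at 6.14 CPM in S164, 5.97 CPM in S165, 5.92 CPM in S166, 2.77 CPM in S167 and 0.633 CPM in S168. The sets lay closer in the other groups. Among hAPOE3 females S145, with choroid plexus, was at 0.653 CPM and S146, without, at 0.670 CPM, and S145 was below S146 for H2-Ab1, Cd74 and H2-Eb1 too. Among hAPOE4 males S174, without choroid plexus, was at 2.04 CPM and S178, with, at 2.15 CPM. Among hAPOE3 males both libraries with (1.34 and 3.01 CPM) were above the 3 without (up to 0.840 CPM). In the 17 libraries H2-Aa had a fold change of 1.90 ± 0.51 (edgeR adjusted p = 0.210, DESeq2 adjusted p = 0.00305). No gene of the list passed by edgeR there, and 5 were higher and 0 lower at an unadjusted p under 0.05. Over all 22238 genes of that fit 1173 were higher and 1077 lower at this level. In the fit of all 20 libraries Ciita, the activator of class II genes, had a fold change of -0.07 and H2-DMa one of 0.10, and neither passed.

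Macrophages at the border of the brain were represented by 10 genes, of which 2 were higher: the chemokine Pf4 (1.48 ± 0.30) and the carbonyl reductase Cbr2 (1.40 ± 0.28). Pf4 was at medians of 0.172 and 0.699 CPM, and Cbr2 at 0.553 and 1.48 CPM. The summed level of the list was between 53.7 and 65.6 CPM without and between 50.5 and 109 CPM with, and its part in the antigen presentation values was not tested. The other 8, among them Mrc1, Cd163 and Lyve1, had fold changes between 0.04 and 1.04 and did not pass. Of 12 microglial genes only Olfml3 passed (0.29), and the median of the list was 0.01. Of 18 interferon response genes 3 were higher, Bst2 (1.17), Ifitm3 (0.78) and Ifi27 (0.54), which other cell types also express. Beside these counts, 6.39% of all genes were called higher, and whether lists this small depart from that share was not tested. In the 17 libraries edgeR called no gene of these lists, and the count of higher genes at an unadjusted p under 0.05 was 2 for border macrophages, 0 for microglia and 3 for the interferon response.

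**Figure D4:**
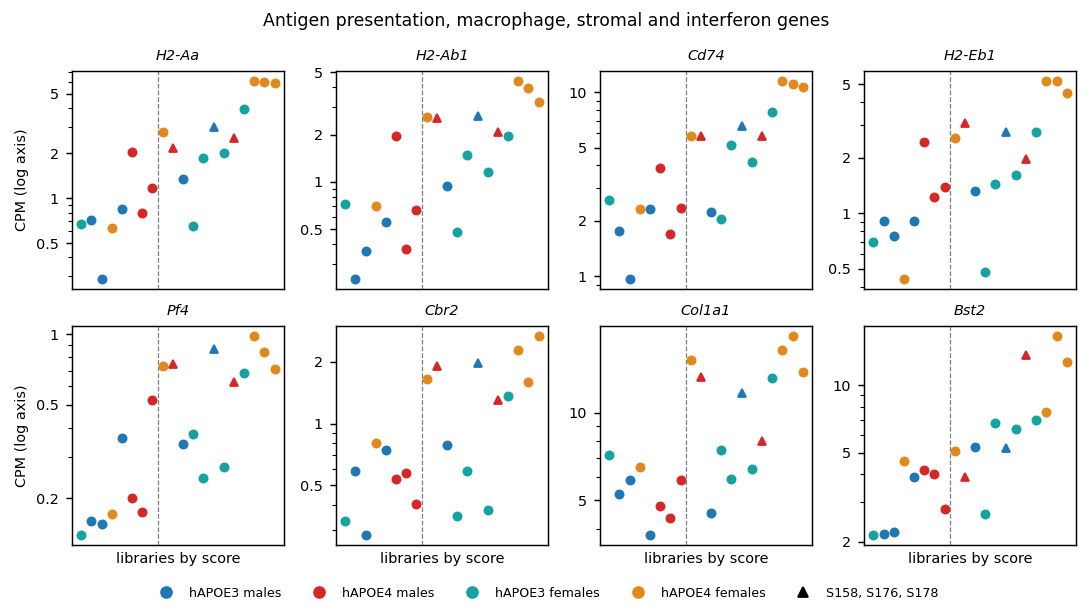
CPM (log axes) of 4 antigen presentation genes, the macrophage genes Pf4 and Cbr2, the collagen Col1a1 and the interferon-induced Bst2 in the 20 libraries ordered by choroid plexus score. All 8 genes overlap between the sets, and the hAPOE4 females S164, S165 and S166 at the right are the highest libraries for H2-Aa, H2-Ab1, Cd74 and H2-Eb1, while the hAPOE4 female without choroid plexus, S168, is among the low ones.

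Neuronal genes were lower with choroid plexus when all 20 libraries were used. Of 12 general neuronal genes 4 were called lower and 0 higher (DESeq2 4 and 0, limma voom 4 and 0, and 5 and 0 at an unadjusted p under 0.05). Among all genes edgeR called 5.04% lower, and 6187 of 21715 were at an unadjusted p under 0.05 in both directions. Camk2a, a kinase of excitatory synapses, was between 2721 and 3883 CPM without and between 1570 and 3846 CPM with (log2 fold change -0.52 ± 0.13). Slc17a7, the vesicular glutamate transporter, had a fold change of -0.39 ± 0.12. Of 15 genes of hippocampal subfields 6 were lower and 0 higher (DESeq2 7 and 0, limma voom 6 and 0, 10 and 0 at an unadjusted p under 0.05), among them Pou3f1 (-0.73 ± 0.15) and Fibcd1 (-0.71 ± 0.15) of CA1. The summed neuronal level was lowest in S158 at 7752 CPM, S176 at 7907 CPM and S178 at 9377 CPM, and between 9544 and 12392 CPM in the other 17 libraries. In those 17 the fold change was -0.37 for Camk2a and -0.21 for Slc17a7, the list medians were -0.12 for neurons and -0.17 for subfields, and edgeR called none of the 27 genes, with 2 and 4 of them lower and 0 higher at an unadjusted p under 0.05.

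Genes of neighbouring regions and of myelin were in part higher with choroid plexus. Of 10 thalamic genes 9 were higher, with a median log2 fold change of 1.30, and of 10 striatal genes 5 were higher. In the 17 libraries the medians were 0.08 and 0.24 and none of these genes passed, with 0 thalamic and 2 striatal genes higher at an unadjusted p under 0.05. The thalamic score was highest in all 3 libraries, whereas the striatal score (mean centred log2 CPM) was 0.99 in S148, an hAPOE3 female with choroid plexus, above 0.66 in S176 and 0.57 in S178. Of 12 oligodendrocyte genes 5 were higher, led by Mbp, the myelin basic protein (0.64 ± 0.17), which was at 6312 CPM in S158 and 4303 CPM in S176 and had a fold change of 0.15 ± 0.12 in the 17 libraries. S178 did not stand apart in the oligodendrocyte score, which was higher in S154 (0.23, without choroid plexus) and S157 (0.15). Of the 10 genes with the largest fold change among all genes with a mean log2 CPM above 0, 5 had high values in only S158, S176 or S178: Shox2 (7.24 ± 1.00), Irx2 (6.04 ± 0.89), Slc6a3 (5.26 ± 1.02), Glra1 (4.69 ± 0.81) and Abhd12b (4.18 ± 0.68). The other 5 were Aqp1, Wfdc2, 1500015O10Rik, Steap1 and Sfrp5, all called without the 3 libraries too. For habenular genes edgeR called 2 higher and 1 lower of 10, and for cortical genes 1 higher of 9. DESeq2 and limma voom each called 1 cortical gene higher and 2 lower. For septal genes edgeR called 1 higher and 2 lower of 9, and DESeq2 called 2 higher and 3 lower. Astrocyte genes were near 0, with 2 of 12 higher and a median of 0.10, and DESeq2 and limma voom each called 1 astrocyte gene lower as well. Among all genes edgeR called 6.39% higher and 5.04% lower, and whether these small lists depart from those shares was not tested.

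Blood, oocyte and respiratory chain genes gave no call between the sets. Among all genes edgeR called 11.4%, so 0 calls among 5 blood or 8 oocyte genes say little about those lists. Of 5 haemoglobin and red cell genes 0 passed by edgeR, DESeq2 or limma voom, and 0 at an unadjusted p under 0.05. In the 17 libraries all 5 were higher at an unadjusted p under 0.05, with a median log2 fold change of 1.97, and 0 passed by edgeR. The sum over the 7 blood genes with counts, tested or not, was highest in S144 at 305 CPM and S157 at 196 CPM. Both were with choroid plexus, and the libraries without were at 9.42 to 81.4 CPM. Of 8 oocyte genes 0 passed by any of the 3 tools and 1 at an unadjusted p. The oocyte sum, over all 18 genes of the list, was between 105 and 205 CPM in S175, S176, S177 and S178. It was between 2.86 and 4.95 CPM in the other 16 libraries, which cuts across the sets. Of 30 nuclear genes of the respiratory chain 0 passed by any tool or at an unadjusted p, with a median log2 fold change of 0.13.

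**Figure D5:**
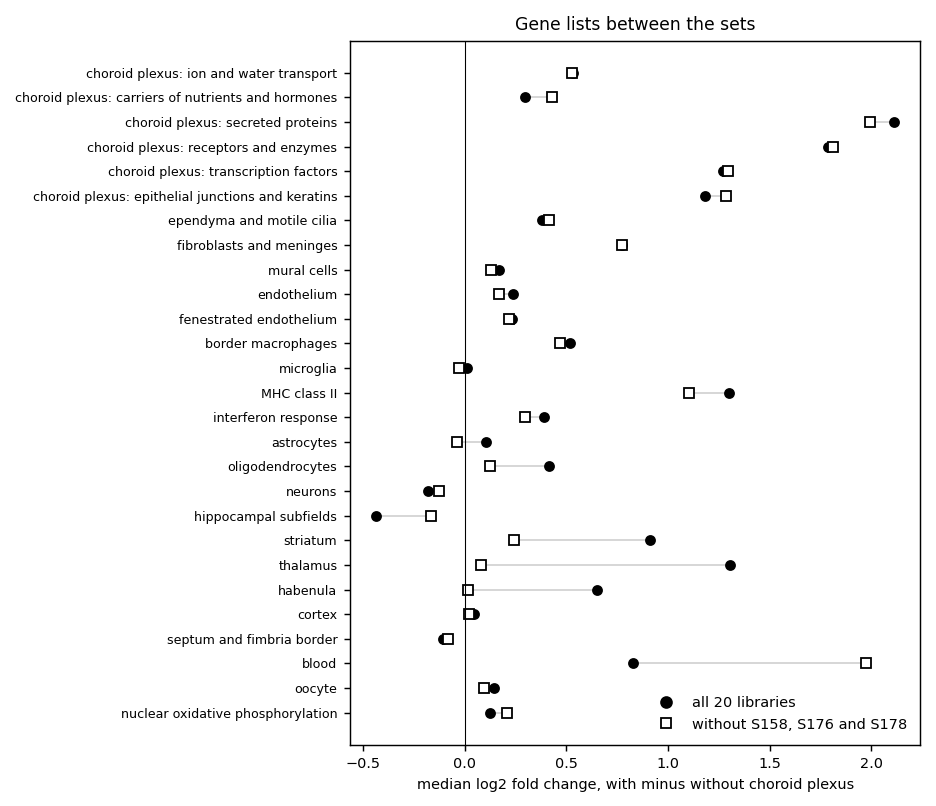
Median log2 fold change (with minus without choroid plexus, horizontal axis) of each gene list in the fit of all 20 libraries (filled circles) and of the 17 libraries without S158, S176 and S178 (open squares). The choroid plexus, fibroblast and MHC class II lists lie at similar values in both fits, whereas thalamus moves from 1.30 to 0.08, striatum from 0.91 to 0.24 and hippocampal subfields from -0.44 to -0.17.

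The genes with the most negative fold changes had smaller effects than the leading choroid plexus genes. Among called genes with a mean log2 CPM above 0 the 10 lowest lay between -1.30 (Gm10925) and -0.95 (Mir7220), and all 10 overlapped between the sets. Hs6st3, a heparan sulfate sulfotransferase, was between 7.39 and 16.0 CPM without and between 1.95 and 14.5 CPM with (-1.25 ± 0.35). Sstr4, a somatostatin receptor of hippocampal neurons, was between 11.8 and 25.4 CPM without and between 5.68 and 22.6 CPM with (-0.97 ± 0.23), and Trpc5, a cation channel, changed by -0.98 ± 0.30. None of them passed by edgeR in the 17 libraries.

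The study compared APOE genotypes within each sex and sexes within each genotype, and those comparisons were fitted again with the set as a further term. For hAPOE4 against hAPOE3 males 152 of 21724 genes passed with the term (0.7%) and 135 without it, of which 134 were shared. For hAPOE4 against hAPOE3 females 34 genes were higher and 134 lower with it (0.773% in all), and 27 higher and 118 lower without it, with 143 shared. Females against males gave 16 genes in hAPOE3 mice (0.0737%), against 9 without the term and 9 shared, and 111 genes in hAPOE4 mice (0.511%), against 95 and 89 shared. The interaction of sex and APOE gave 40 genes (0.184%), against 40 and 39 shared. Most genes called without the term were thus also called with it. Leaving out 1 library gave from 114 (without S175) to 307 (without S174) in males, from 88 (without S148) to 347 (without S144) in females, from 13 (without S158) to 88 (without S168) between hAPOE3 sexes, from 64 (without S176) to 489 (without S168) between hAPOE4 sexes and from 26 (without S164) to 121 (without S174) for the interaction. Without S158, S176 and S178 the counts were 66, 180, 10, 7 and 5 in the same order.

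Choroid plexus genes were not called in the study's comparisons either way. Of the 94 genes of the score and the 6 lists, 0 passed by edgeR or DESeq2 in each of the 5 comparisons with the term, and 0 by edgeR without it. Over all 21724 genes edgeR called between 0.0737% and 0.773% with the term, and 0 of 94 is near those shares. Between females and males in hAPOE4 mice their median log2 fold change was 0.91 without the term and 0.40 with it, and the number at an unadjusted p under 0.05 went from 31 to 10. Between females and males in hAPOE3 mice the median went from 0.56 to 0.09 and the number from 10 to 6. Between genotypes the medians without and with the term were 0.16 and 0.15 in males and 0.47 and 0.42 in females. There the number at an unadjusted p under 0.05 rose with the term, from 0 to 6 in males and from 5 to 15 in females. For the interaction it went from 0 to 1. Among all 21724 genes, edgeR with the term gave 2011 at this level between hAPOE4 sexes and 3271 between hAPOE3 sexes. Between genotypes it gave 2317 in males and 2537 in females, and it gave 619 for the interaction. No such count over all genes is given for the fit without the term. Whether the choroid plexus genes changed between the fits more than all genes did was not tested. The set was chosen on 9 of the 94 genes, so the values with the term are not independent of that choice.

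The genes that only 1 of the fits called were few. Shox2, Irx2 and Glra1 passed between hAPOE4 females and males only with the term, with log2 fold changes of -6.39 ± 1.16, -5.57 ± 1.01 and -4.86 ± 0.97, and among the hAPOE4 males S176 was the highest for all 3 genes. Pou4f1 passed in hAPOE4 against hAPOE3 males only with the term (2.79 ± 0.63, adjusted p = 0.0380 in edgeR, and 2.83 ± 0.86 without it, adjusted p = 0.230). Cbr2 passed in hAPOE4 against hAPOE3 females only with the term (1.55 ± 0.35, and 1.56 ± 0.51 without it). Between hAPOE3 sexes Gm19220, Gm10925 and Abhd12b passed only with the term. H2-Aa had a fold change of 1.12 ± 0.42 in hAPOE4 against hAPOE3 females with the term (edgeR adjusted p = 0.269) and 1.22 ± 0.58 without it (adjusted p = 0.495), and was called in neither.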

How the data were processed

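PolyA-selected RNA of 20 hippocampi was sequenced by the authors as 75 bp read pairs, assigned to mouse transcripts of Ensembl release 95 with Salmon 0.91 and summed per gene with tximport. The deposited table holds estimated counts per gene for 33119 genes, already whole numbers and not normalized, and 0 columns were left out. The deposited normalized counts, a signal the authors made by dividing counts by DESeq2 factors, were not used. Human APOE has no entry of its own in mouse transcripts. Salmon splits reads between near-identical genes, so values of Gm and Olfr genes, Defb11 and the haemoglobin genes are uncertain.

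Sets were made from TMM log2 CPM (prior count 2) of 9 genes with the division at -1. The genes, the division, the gene lists and the tests were chosen with earlier results of these data known. Counts were tested in edgeR 4.0.16 (R 4.3.3) with TMM factors, filterByExpr by group, one mean for each of the 4 groups plus the set, glmQLFit and glmQLFTest, and Benjamini-Hochberg adjustment at 0.05 over all genes. The 9 genes stayed in the fit and out of the counts. Standard errors were derived by dividing each fold change by the root of F. Named genes were the 9, up to 4 called genes per list with the largest fold change (or 2 with the smallest p), the 10 largest and 10 smallest fold changes above a mean log2 CPM of 0, and up to 3 per study comparison that only 1 fit called. Other named genes were chosen after their values were seen, as were S158, S176 and S178 and the comparisons that use them. Checks of depth used exact permutation, and labels Fisher's exact test. DESeq2 1.42.0 and limma voom (limma 3.58.1) served as alternatives. Depth was 35778879 to 52520279 counts per library, and no pair of libraries agreed within sampling noise (chi-square per degree of freedom at least 9.98 over 190 pairs). Positions are from GENCODE M21 (GRCm38), which matched 30992 of 33119 symbols. In simulated counts of 21715 genes with 200 changed between the sets, edgeR called 49.3% of genes changed by a log2 fold change of 0.5, 89.6% at 1 and 95.5% at 2, with 3.7% false calls. Each gene was drawn separately there, so these rates do not speak to genes that move together in S158, S176 and S178. The study's metabolite and imaging data were not analysed here, and a few genes of the lists are not reported here by name.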

Additional observations from a re-analysis of the deposited data

Results flagged for a closer look

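Within each group of 5 libraries, values of 29 measures (the choroid plexus score, 27 list scores in centred log2 CPM and the mitochondrial share) were examined for 1 library far from the other 4 by Dixon's ratio. Of 116 such looks 13 stood out, where chance gives about 1 in 20, or 5.8. Among hAPOE3 males S158 was high in striatal genes (2.67, others -0.38 to -0.15), thalamic genes (2.20, others -0.39 to -0.24) and fibroblast genes (0.25, others -0.71 to -0.58). Among hAPOE4 males S176 was high in habenular (2.04), oligodendrocyte (0.67) and interferon response genes (0.97), and S178 was high in microglial genes (0.11, others -0.13 to -0.07). S174 was flagged as low in oocyte genes (-1.04, others 3.20 to 3.92). In the other groups the oocyte score was between -1.04 and -0.63. The other 4 hAPOE4 males, and not S174, were thus apart from the rest of the series. Among hAPOE3 females S144 was high in fibroblast (1.01) and blood genes (2.39). Among hAPOE4 females S168, the library without choroid plexus, was low in mural genes (-0.52, others 0.32 to 0.44) and endothelial genes (-0.12, others 0.10 to 0.18), and S165 was high in habenular genes (0.068, others -0.24 to -0.16). The APOE difference differed between the sexes, tested as an interaction with the set as a term, in 40 genes, all with a negative interaction. Leaving out 1 library gave from 26 (without S164) to 121 (without S174) such genes. The part of the oocyte scores of the hAPOE4 males in these genes was not tested.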

How the results depend on the processing

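The count of genes between the sets was 2482, and 1640 with the score as a continuous term, 796 with no term for the groups and 1447 with the oocyte score as a term. It stayed within 1.5 times under limma voom, DESeq2 (3465), other normalizations, filters and covariates and a division at 0 (3190). Leaving out 1 library gave 682 to 4486. Without S158, S176 and S178, chosen after seeing the data, it was 29, or 220 with DESeq2, and the split moved from 55.9% higher to 100% and 95.5%. It was 86.3% with no term for the groups (687 higher, 109 lower) and 48.4% with DESeq2. The slope on the score gave 99 genes, and 84 without the 3. Bmp15, not called, had the opposite sign with no term for the groups (-0.65). For the group comparisons in the order hAPOE4 against hAPOE3 males, the same in females, females against males in hAPOE3, the same in hAPOE4, and the interaction, DESeq2 gave 268, 398, 97, 217 and 65. With no filter males gave 241 and hAPOE4 sexes 237. With only the libraries with choroid plexus, hAPOE4 against hAPOE3 females gave 62, hAPOE3 sexes 40 and hAPOE4 sexes 453. With no term for the set hAPOE3 sexes gave 9. Without S158, S176 and S178 the counts were 66 in males, 10 and 7 between sexes and 5 for the interaction. Leaving out 1 library gave 114 to 307, 88 to 347, 13 to 88, 64 to 489 and 26 to 121. Over all libraries in place of within groups, the difference was 3677300 counts of depth (exact permutation p = 0.0515) and 298 detected genes (exact permutation p = 0.122). Where calls were lost the cause was not tested, and neither was the part of the smaller number of libraries where some were left out. All 4 groups held both sets, so restricting to groups that hold both changes nothing. No paired analysis was possible because the replicate numbers are only names of separate mice.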
